A study of Homo sapiens with 14 samples.

Results

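The THO complex and the mRNA export factors that bind it were represented by 10 genes: THOC1, THOC2, THOC3, THOC5, THOC6 and THOC7, which encode THO subunits, the RNA helicase paralogs DDX39A and DDX39B, and the adaptor proteins ALYREF and SARNP. All splice events listed for these 10 genes were taken from the deposited table of HEK293T cells, whatever their type, if the mean of the WT and MT junction reads was at least 10. The table held 101 events of these genes among 114349, and 100 of them, against 94061 in all, reached 10 reads. HEK293T, a human embryonic kidney line, was compared as 3 WT libraries (SF3B1 K700K) and 3 MT libraries (SF3B1 K700E), in which the mutation had been placed at the endogenous locus. How many clones stood behind the 3 MT libraries was not given in the sources used here, and p-values then measure only the spread between these libraries. A second readout, DRIP-seq, which captures DNA:RNA hybrids with the S9.6 antibody, came from Nalm-6, a human leukemic B cell line, with 2 libraries each of untreated WT (K700K) and MT (K700E) DNA and 2 libraries each of the same DNA treated with RNase H (RNH1). The genotypes differed only in SF3B1 according to the labels, and no other allele or agent was named.

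THO is assembled on nascent RNA together with the helicase DDX39B (also known as UAP56) and the adaptor ALYREF, and this larger assembly, called TREX, hands spliced mRNA to the export receptor. Loss of THO subunits is known from yeast and human cells to favor R-loops, hybrids of nascent RNA with the template strand. SF3B1 is the U2 snRNP subunit that holds the branch site, and the K700E mutant is known for the use of cryptic 3′ splice sites that lie a short way upstream of the usual site.

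The THOC1 event, the DDX39B event and the 70-base exon of THOC2 are shown first. They hold the largest difference, the best-read event and the smallest p among the 10 genes. The neighboring THOC2 exon of 158 bases, named after its values were seen, is shown beside the exon of 70 bases. All are on the minus strand of GRCh38 and are written 5′ to 3′. In THOC1 (ENSG00000079134.11), the capitals mark the 21 bases that the upstream 3′ splice site adds to the exon, at chr18:224180-224200, between the end of the intron and the shared part of the exon. In DDX39B (ENSG00000198563.13), they mark the 84 bases added by an upstream 3′ splice site, at chr6:31538856-31538939. In THOC2 (ENSG00000125676.19), they mark a pair of neighboring exons, at chrX:123613639-123613708 and chrX:123613399-123613556, each with bases of the introns beside it.
THOC1, 21 added bases: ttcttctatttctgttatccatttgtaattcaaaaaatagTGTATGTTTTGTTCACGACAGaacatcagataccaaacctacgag
DDX39B, 84 added bases: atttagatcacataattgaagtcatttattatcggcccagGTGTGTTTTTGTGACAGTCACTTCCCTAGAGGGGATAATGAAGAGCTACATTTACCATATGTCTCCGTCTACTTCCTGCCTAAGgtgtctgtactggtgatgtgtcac
THOC2, exon of 70 bases: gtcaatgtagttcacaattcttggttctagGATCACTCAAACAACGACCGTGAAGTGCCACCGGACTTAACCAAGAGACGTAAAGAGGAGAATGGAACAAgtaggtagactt
THOC2, exon of 158 bases: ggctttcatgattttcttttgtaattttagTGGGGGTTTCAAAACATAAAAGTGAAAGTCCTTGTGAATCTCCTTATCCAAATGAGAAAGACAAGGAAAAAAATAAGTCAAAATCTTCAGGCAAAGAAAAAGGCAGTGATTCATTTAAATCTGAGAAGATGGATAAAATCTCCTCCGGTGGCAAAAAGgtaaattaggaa

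The inclusion level of an event is the fraction of transcripts that carry the longer form or the exon, computed from junction reads per length of each form. For mutually exclusive exons it is the fraction that carries a given exon of the pair, and which exon that is was not established here. Of the 100 events, 84 varied among the 6 libraries and were tested, and the other 16 had a level of 1.000 in all 6. The mean MT reads of these 16 also cover 3 listed MT values that were not used. They held 0.167 to 0.667 reads of the other form. The tested events had 14.3 to 1208 mean reads, with a median of 196.8, against a median of 82.4 over all events tested. Most were nearly constitutive: the mean WT level was above 0.9 for 45 events, below 0.1 for 19 and between 0.1 and 0.9 for 20. Marker genes gave no check of the cell line here, since 0 events of 5 HEK293T markers and 0 events of 6 B cell markers reached 10 reads.

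None of the 84 member events was called in the comparison of MT with WT (limma, Benjamini-Hochberg over 83581 events, adjusted p under 0.05 and a difference above 0.1), and 0.0311% of all events tested were called. At an unadjusted limma p under 0.05 there were 6 of the 84, against 4.47% of all events. With a logit in place of the arcsine transform the same limma test also called 0, and 6 events had an unadjusted p under 0.05. That count of 6 was not stable: it was 3 with no variance trend, 2 without MT replicate 1, 3 without WT replicate 3 and 4 without WT replicate 2, where the replicate number of MT is the order of its columns. The mean level was higher in MT for 36 and lower for 48 of the events, and the median difference was -0.001, against -0.002 over all events tested. The absolute difference was above 0.1 in 2 of the 84 events, both of THOC1, against 5.82% of all events. In 8 of the 84 events the 3 WT and 3 MT levels did not overlap, against 5.46% of all events. Of these 8, all MT levels were higher in 3 (2.32% of all events) and lower in 5 (3.15% of all events).

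**Figure D1:**
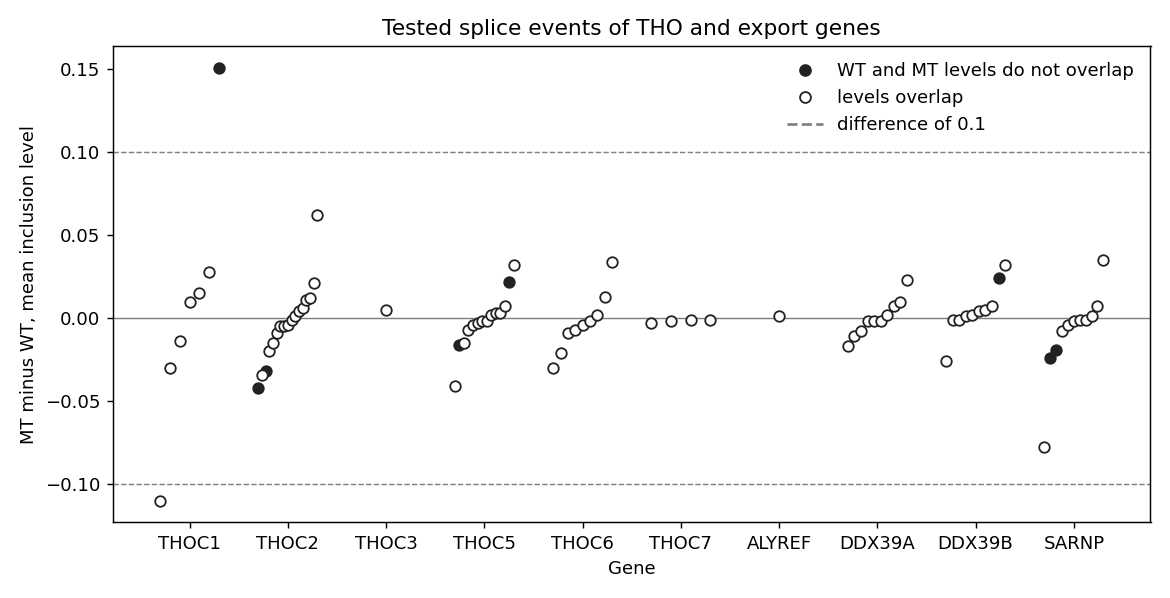
Difference in mean inclusion level (MT minus WT, fraction) of each of the 84 tested splice events, grouped by gene on the x axis; filled points are the 8 events whose WT and MT levels do not overlap, and dashed lines mark a difference of 0.1. The THOC1 points at 0.151 and -0.110 lie outside the dashed lines, and all points of the other genes lie between them.

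THOC1, the human counterpart of yeast Hpr1, is a core THO subunit. The study had picked this gene with data that include this cell line, so that its direction is not independent evidence. It had called splice events with the rMATS model, not with the limma fit used here. It also reported the altered THOC1 splicing by reverse transcriptase qPCR in its isogenic lines and in CLL cells with SF3B1 mutations. Those measurements were not among the data used here. At the alternative 3′ splice site, the longer form had levels of 0.049, 0.142 and 0.172 in the WT libraries and 0.282, 0.283 and 0.25 in the MT libraries. The genotypes did not overlap, and the 3 MT levels were closer to each other than the WT levels. The WT mean was 0.121 ± 0.064 and the MT mean 0.272 ± 0.019 (SD, n = 3 each). The difference of 0.151 did not pass the threshold (limma, Benjamini-Hochberg adjusted p = 0.665). By a two-sided exact permutation of the libraries p was 0.1, and 3 against 3 libraries cannot give less. In the authors' mean read counts, the longer form went with 14.3 reads in WT and 38.5 in MT, and the shorter form with 78.7 and 73.8, where the MT mean covers all 6 listed values. Ordered by the rise in MT, the event was number 104 of all 5351 tested alternative 3′ splice site events. Among the 3167 with at least 50 mean reads, a minimum used for this ranking only, it was number 23.

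The 21 bases held 4 A, 3 C, 5 G and 9 T. Their length is a whole number of codons (7), and they held 0 stop codons in the reading frame of either annotated coding transcript that covers the site. The annotation (GENCODE) lists the upstream site in 1 of 19 THOC1 transcripts, a coding one, and the downstream site in 8, of which 2 are coding. Both sites follow an AG. In the 20 bases before that AG, the upstream site had 45.0% adenines and 50.0% pyrimidines, and the downstream site 15.0% and 60.0%. The line of bases above shows the run of adenines just before the first capital. Over 5351 tested alternative 3′ splice site events, the median at the upstream site was 15.0% adenines and 70% pyrimidines, and 1.5% of them had as many adenines as THOC1. Among the 997 events whose sites lie 10 to 30 bases apart, 4.6% had as many. An oligonucleotide that the study used to amplify the mutant-associated THOC1 form matched this junction in reverse complement. It is shown here because it spans the junction of the longer form, with the 20 bases from the added segment in capitals and the 5 bases from the upstream exon in lower case. The oligonucleotide listed for the WT form matched, over its 20 bases, the exon part that both forms share, so that by sequence it does not tell them apart.
THOC1 primer: TGTCGTGAACAAAACATACActttc

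At the other THOC1 events the genotypes overlapped. A retained intron of 197 bases at chr18:225140-225336, named here after its values were seen because it is the second member event above 0.1, had levels of 0.218, 0.395 and 0.364 in WT, and the MT libraries had 0.125, 0.188 and 0.33. The highest MT level lay above the lowest WT level. The means were 0.326 ± 0.095 and 0.215 ± 0.107 (SD, n = 3), which differed by -0.110 with 49.5 mean reads (limma, Benjamini-Hochberg adjusted p = 0.856). The intron of 94 bases next to it had means of 0.113 ± 0.030 in WT and 0.083 ± 0.051 in MT (SD, n = 3). The THOC1 event with the most reads, an exon of 83 bases at chr18:254273-254355, had 1.000, 0.987 and 1.000 in WT and 0.976, 0.969 and 1.000 in MT, at 119.7 mean reads. The second alternative 3′ splice site of the gene, 49 bases apart, was used at 0.973 ± 0.032 in WT and 0.983 ± 0.017 in MT (SD, n = 3). Only the first of the 7 tested THOC1 events separated the genotypes.

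**Figure D2:**
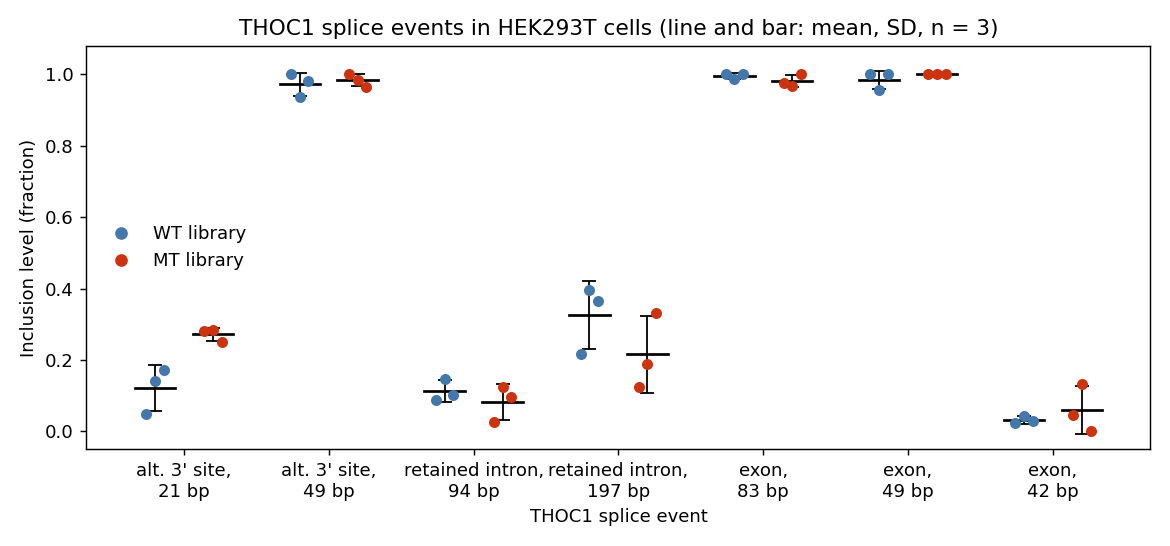
Inclusion level (fraction) of the 7 tested THOC1 events in each HEK293T library, WT in blue and MT in red, with mean and SD (n = 3). At the alternative 3′ splice site of 21 bp the MT libraries sit at 0.25 to 0.283 and the WT libraries at 0.049 to 0.172, and the points of the 6 other events overlap.

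THOC2, the largest THO subunit and its scaffold, had the smallest p among the 84 events. The exon of 70 bases had levels of 1.000, 1.000 and 0.987 in WT, and the MT libraries had 0.923, 0.965 and 0.972. All 3 MT levels lay below the WT levels. The means were 0.996 ± 0.008 and 0.953 ± 0.027 (SD, n = 3), a difference of -0.042 (limma, Benjamini-Hochberg adjusted p = 0.343), which is below the size required for a call. Without MT replicate 1, the library at 0.923, the difference was -0.0272. The form that skips it was seen at a mean of 1.00 reads in WT and 5.50 in MT, against 267.0 and 347.3 reads that include it. The neighboring exon of 158 bases, which was named after its values were seen, had 0.988, 0.995 and 0.977 in WT and 0.936, 0.954 and 0.973 in MT. Its means were 0.987 ± 0.009 and 0.954 ± 0.019 (SD, n = 3), a difference of -0.032 (limma, Benjamini-Hochberg adjusted p = 0.856), and its skipping was read 2.33 times on average in WT and 7.17 in MT.

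These THOC2 events were not independent of each other. Both use the same exon at chrX:123611440-123611516 as the flank toward the end of the gene. The first event was therefore scored against a junction that leaves out both exons and joins chrX:123614052-123614189 to that flank. Alone, the exons of 70 and 158 bases leave a remainder when divided into codons, and together their 228 bases make 76 codons. None of the 20 annotated THOC2 transcripts skips either exon in the way the events describe, while 11 carry the first and 10 the second. The tested THOC2 event with the most reads, an exon of 180 bases at chrX:123632861-123633040, had 0.967, 0.991 and 0.995 in WT and 0.99, 0.989 and 0.992 in MT, at 369.5 mean reads. Of the other THOC2 events, the largest difference was 0.062, at a pair of mutually exclusive exons, whose levels ran from 0.230 to 0.404 in WT and from 0.287 to 0.462 in MT.

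DDX39B, the TREX helicase, had the best-read event of all 10 genes, with 1208 mean reads. The upstream 3′ splice site that adds 84 bases had levels of 0.049, 0.037 and 0.045 in WT, and the MT libraries had 0.080, 0.055 and 0.069. Every MT level was above every WT level, although the form stayed rare in both genotypes. The means were 0.044 ± 0.006 and 0.068 ± 0.013 (SD, n = 3), a difference of 0.024 (limma, Benjamini-Hochberg adjusted p = 0.856). The longer form went with 87.7 reads in WT and 163.0 in MT and the shorter form with 1051 and 1114, as the authors' means. The added length is 28 codons, and 2 of 21 annotated transcripts use the upstream site and 12 the downstream site. In the 20 bases before the AG, the upstream DDX39B site had 25.0% adenines and 60.0% pyrimidines and the downstream site 10% and 80%.

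Other 3′ splice sites of the member genes are given for comparison. Of the 15 tested alternative 3′ splice site events, those of THOC1 and DDX39B just described were the 2 without overlap, against 9.29% of all events of this type. The longer form was higher in MT in 8 of the 15 and lower in 7. In DDX39B itself, the sites 23 and 19 bases apart differed by 0.001 and -0.001, at 665.3 and 991.6 mean reads. A DDX39B segment of 130 bases, at chr6:31540535-31540664, had 0.747, 0.883 and 0.852 in WT and 0.792, 0.925 and 0.861 in MT. Another tested entry of the same segment had 1.000, 0.988 and 0.995 in WT and 1.000, 1.000 and 0.996 in MT. In THOC2, an entry for sites 81 bases apart had 0.247, 0.164 and 0.163 in WT and 0.224, 0.195 and 0.218 in MT, which overlapped. Another tested entry of the same 81 bases had 1.000, 0.785 and 0.789 in WT and 1.000, 0.758 and 0.828 in MT, which also overlapped. The 15 events are therefore not all separate sites.

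SARNP, an RNA-binding adaptor also called CIP29, had 2 of its 11 tested events without overlap, both with lower levels in MT. The exon of 171 bases at chr12:55757383-55757553 had 1.000, 0.992 and 1.000 in WT and 0.949, 0.984 and 0.986 in MT. The means were 0.997 ± 0.005 and 0.973 ± 0.021 (SD, n = 3), a difference of -0.024 (limma, Benjamini-Hochberg adjusted p = 0.856). This rested on few reads, since the skipped form was read 0.33 times on average in WT and 1.33 times in MT. Without MT replicate 1 the difference was -0.0123. The other, named after its values were seen, was a choice between exons of 90 and 69 bases. It had 1.000, 0.992 and 1.000 in WT and 0.961, 0.985 and 0.989 in MT. Its rarer form was read 0.33 and 1.5 times on average, and its difference of -0.019 was -0.0103 without MT replicate 1. The SARNP event with the most reads, an exon of 100 bases at chr12:55803629-55803728, was at 1.000 in all libraries but 1, which was at 0.998. The largest SARNP difference, -0.078, came from 1 MT library at 0.765, with all others at 1.000, and from 14.3 mean reads.

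THOC5, a metazoan THO subunit that also binds the export receptor, had 14 tested events, of which 2 were without overlap. Retention of a segment of 71 bases inside an exon, at chr22:29544509-29544579, had 0.99, 0.995 and 1.000 in WT and 0.971, 0.981 and 0.986 in MT. The means were 0.995 ± 0.005 and 0.979 ± 0.008 (SD, n = 3), a difference of -0.016 (limma, Benjamini-Hochberg adjusted p = 0.856), and the spliced form was read 1.00 and 2.50 times on average. The exon of 33 bases at chr22:29531078-29531110, named after its values were seen, had 0.064, 0.075 and 0.060 in WT and 0.084, 0.101 and 0.079 in MT, without overlap but with a limma adjusted p = 0.856 (Benjamini-Hochberg). The best-read THOC5 event, the exon of 144 bases that contains the retained segment, was at 1.000 in 5 libraries and at 0.995 in 1 MT library. An exon of 116 bases that was included in part, at chr22:29550728-29550843, had 0.441, 0.322 and 0.451 in WT and 0.485, 0.420 and 0.331 in MT against one pair of flanks, and the groups overlapped.

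**Figure D3:**
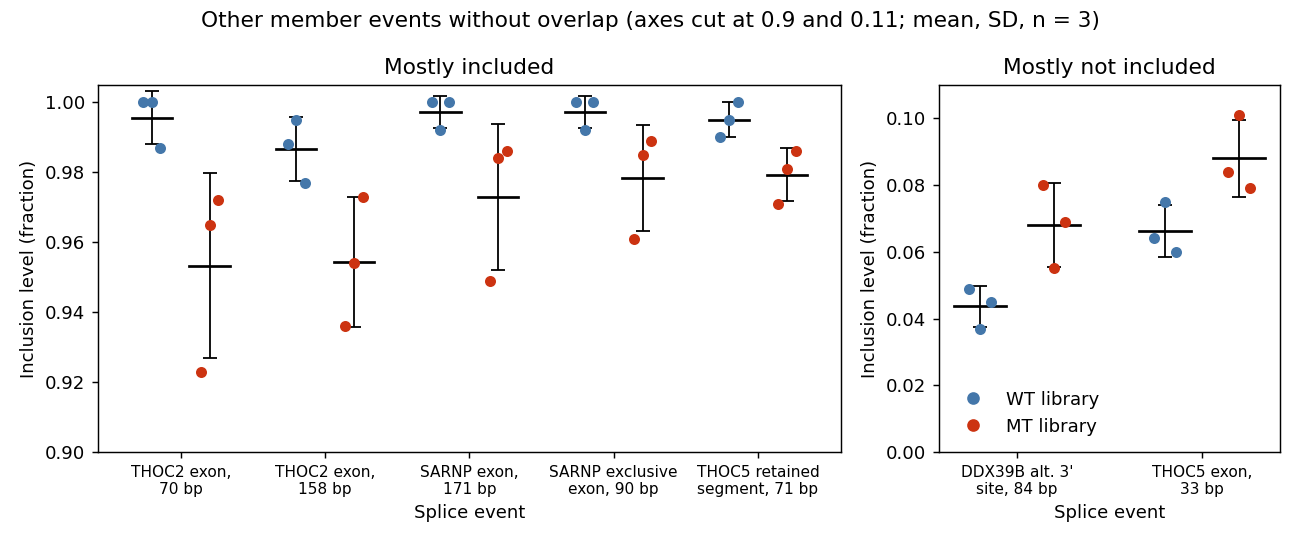
Inclusion level (fraction) in each HEK293T library of the 7 events without overlap other than that of THOC1, WT in blue and MT in red, with mean and SD (n = 3); the left axis starts at 0.9 and the right axis ends at 0.11. The THOC2, SARNP and THOC5 events on the left are lower in MT by 0.016 to 0.042, and those of DDX39B and THOC5 on the right are higher by 0.024 and 0.022.

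No event of the other member genes separated the genotypes. DDX39A, the paralog of DDX39B, had 10 tested events with differences from -0.017 to 0.023. Its best-read event, retention of 342 bases at chr19:14409874-14410215, had 0.080, 0.148 and 0.202 in WT and 0.065, 0.175 and 0.157 in MT. Its smallest p (limma, Benjamini-Hochberg adjusted p = 0.856) came from retention of 234 bases of the same region, at 0.968, 0.897 and 0.901 in WT and 1.000, 0.966 and 0.870 in MT. THOC6, a small THO subunit, had 9 tested events with differences from -0.030 to 0.034. Its smallest p (limma, Benjamini-Hochberg adjusted p = 0.856) was that of an alternative 3′ splice site, with 1.000, 0.953 and 0.974 in WT and 0.977, 0.906 and 0.982 in MT. The exon of 111 bases with the most THOC6 reads was at 1.000 in 5 libraries and at 0.993 in 1 MT library.

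THOC7, which pairs with THOC5 in the complex, had 4 tested events that differed by -0.003 to -0.001. Its best-read exon, of 118 bases, had 0.985, 0.977 and 0.980 in WT and 0.991, 0.968 and 0.977 in MT. The event with its smallest p, an exon of 67 bases, was at 1.000 in 5 libraries and at 0.992 in 1 MT library. THOC3 had 1 event, an exon of 157 bases with 0.986, 1.000 and 1.000 in WT and 1.000 in all MT libraries. ALYREF, the adaptor that is bound by the export receptor, had 1 tested event, an exon of 187 bases with 0.001, 0.002 and 0.001 in WT and 0.004, 0.002 and 0.001 in MT, at 563.4 mean reads. These 3 genes therefore gave 6 tested events in all, 5 of them at levels above 0.9 and 1 at 0.004 or below.

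Other genes of the export pathway were taken from 4 lists, sorted by role. None of their 336 tested events was called, and 15 had an unadjusted limma p under 0.05, against the 4.47% of all events. This count of 15 was 5 with the logit transform, 3 with no variance trend, 6 without WT replicate 1 and 7 without WT replicate 3. It was higher in other settings, at 20 without MT replicate 1 and 18 without MT replicate 2. The levels did not overlap in 7 events (2.08%), against 5.46% of all events, with 2 higher and 5 lower in MT. Among cap binding proteins and adaptors (109 events of 9 genes, 3 with an unadjusted p under 0.05), the smallest p was that of an exon of 204 bases in ZC3H11A, a zinc finger protein of the TREX assembly. It had 0.681, 0.703 and 0.633 in WT, and the MT libraries had 0.342, 0.626 and 0.597. The difference of -0.151 was set largely by the MT library at 0.342 (limma, Benjamini-Hochberg adjusted p = 0.856). Among the export receptor and pore genes (150 events of 10 genes, 7 with an unadjusted p under 0.05), it was a choice between exons of TPR, a protein of the nuclear basket, with 0.400, 0.483 and 0.495 in WT and 0.624, 0.515 and 0.556 in MT (limma adjusted p = 0.84, Benjamini-Hochberg).

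Among TREX-2 genes (45 events of 7 genes, 4 with an unadjusted p under 0.05), an exon of 93 bases in LENG8 had 1.000, 0.984 and 1.000 in WT and 0.921, 0.965 and 0.910 in MT. This difference of -0.063 had a limma adjusted p = 0.361 (Benjamini-Hochberg). Among exon junction complex genes (32 events of 5 genes, 1 with an unadjusted p under 0.05), a choice between exons of CASC3 had 0.569, 0.451 and 0.417 in WT and 0.469, 0.342 and 0.33 in MT, and the groups overlapped (limma, Benjamini-Hochberg adjusted p = 0.856). The median difference was between -0.004 and -0.0015 in each of the 4 lists.

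DRIP-seq gave a second readout of the same genes, in Nalm-6 cells. In the untreated libraries, the spans of the 10 genes were overlapped by 20 of 123720 and 23 of 131096 WT peaks, and by 34 of 254170 and 45 of 296533 MT peaks. Both counts were higher in MT, as was the number of all peaks. As a share of the library's own peaks, the genes held 0.0169% ± 0.000975 in WT and 0.0143% ± 0.00127 in MT (SD, n = 2), a difference of -0.00258 percentage points (p = 0.33 by an exact two-sided permutation, below which 2 against 2 libraries cannot go). The difference had the other sign, 0.000428 percentage points (exact permutation p = 0.667), when peaks that share a base with a peak of the matching RNH1-treated library were left out. Peak lists carry no read totals, so the depth behind these counts is unknown.

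By gene, SARNP had 9 and 12 peaks in the MT libraries against 4 and 3 in the WT ones. THOC5 had 5 and 6 MT peaks against 2 and 3 WT peaks, THOC7 had 5 and 5 MT peaks against 1 and 1, and THOC3 had 2 and 2 MT peaks against 0 and 0. These 4 of the 8 genes with any untreated peak had more peaks in both MT than in both WT libraries, against 63.5% of all protein-coding genes with a peak. THOC1 had 4 and 5 WT peaks and 5 and 8 MT peaks, and THOC2 had 7 and 9 in both genotypes. Over the whole span of DDX39B there were 1 and 1 WT peaks and 1 and 3 MT peaks. DDX39A, with 1 and 1 in WT and 0 and 0 in MT, was the only one with fewer in MT, and ALYREF and THOC6, the shortest genes, had 0 in all 4. In the RNH1-treated libraries, SARNP had 7 and 8 peaks in MT and 1 and 2 in WT. THOC7 had 2 and 2 in MT and 0 and 2 in WT, and THOC5 and THOC3 each had 0 and 1 in both genotypes. THOC1 had 4 and 6 in MT and 2 and 6 in WT. THOC2 had 5 and 8 in MT and 3 and 2 in WT, and DDX39B had 1 and 1 in MT and 0 and 0 in WT. The untreated counts by gene were not corrected for these peaks. No peak of any of the 8 libraries overlapped the 21 added bases of THOC1 or either THOC2 exon. At the 84 bases of DDX39B, 1 peak in each untreated MT library and none in the others overlapped, by at least 1 base. The untreated MT libraries held more peaks in all, 254170 and 296533 against 123720 and 131096 in WT. A share over all splice events was not computed, and a link with the DDX39B event seen in HEK293T was not tested.

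**Figure D4:**
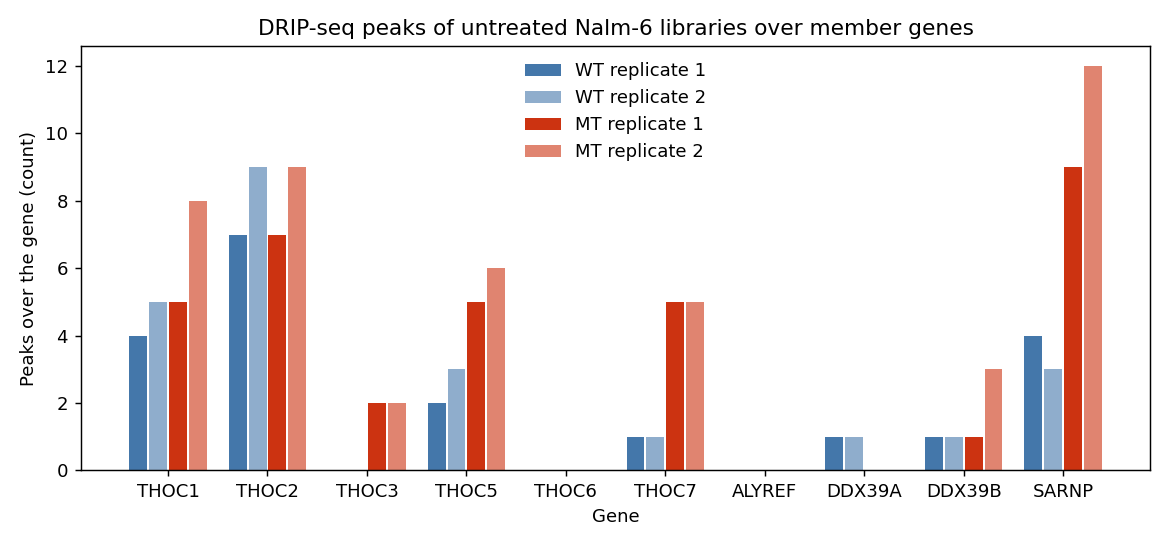
Number of DRIP-seq peaks that overlap the span of each member gene in the 4 untreated Nalm-6 libraries, WT in blue and MT in red, one bar per library. The RNH1-treated libraries are not drawn. SARNP, THOC5, THOC7 and THOC3 have more peaks in both MT than in both WT libraries, THOC2 has 7 and 9 in each genotype, and DDX39A has peaks in WT libraries only.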

How the data were processed

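The comparison used inclusion levels of 3 WT and 3 MT HEK293T libraries and peak lists of 8 Nalm-6 DRIP-seq libraries, grouped by their labels. Methods name the rMATS model for splicing and, for DRIP-seq, BWA-MEM on GRCh38, removal of duplicates and MACS2. The deposited inclusion levels are fractions with 3 decimals, and the authors also gave mean junction read counts per group. Each peak was deposited with its fold enrichment, a ratio. The authors' own p-values, FDR and differences for each event were not used. For MT, 6 values stand in each list and 3 have their own column. These 3 were the first, second and last of the 6 listed values in all 104971 complete lists. They were used in column order, and whether they belong to the 3 MT samples is open, while the mean MT reads cover all 6. Some count lists are run together, so no count test was made.

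Of 104650 events with a level in all 6 libraries, 94005 had at least 10 mean reads. The 83581 that varied were fitted with limma 3.58.1 (R 4.3.3) after an arcsine square root transform, the variance following log reads. The fit was also run on simulated data, in which only events of intermediate level were changed. That run cannot tell how well changes at nearly constitutive events, like most member events, would be called. Event coordinates were written 1-based and compared with GENCODE. Named per gene were called events, events without overlap that differ by at least 0.1, the best-read of the tested events and that with the smallest p. Further events were named after their values were seen. Members and lists were chosen with earlier results of these data known.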

Additional observations from a re-analysis of the deposited data

How the results depend on the processing

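The number of member events called and the number of export pathway events called were 0 with a logit transform (levels held between 0.01 and 0.99), a minimum of 20 reads, no minimum, no variance trend, a difference above 0.05 and without each library in turn. The difference above 0.05 could not add a call, because it kept the p-values of the main fit. Their smallest limma adjusted p (Benjamini-Hochberg) was 0.343 for member events and 0.361 for export pathway events. The smallest adjusted p of a member event was between 0.33 and 0.894 over these alternatives. The THOC1 difference at the alternative 3′ splice site was between 0.115, without WT replicate 1, and 0.176, without WT replicate 3, and its adjusted p between 0.678 and 0.894. For 19 other events, 0 of 185 alternatives gave a call, and 7 had the other direction. The transform, the minimum of reads and the variance trend do not enter the difference, so these settings could not change its direction. Leaving out 1 library could not change the direction of an event without overlap either. The count of 178 that kept the direction is therefore no measure of stability. Without MT replicate 1, the difference moved by over 1.5 times in 3 events without overlap, to -0.0272 for the 70-base exon of THOC2 and to -0.0123 and -0.0103 for the SARNP events. The direction changed in 5 events when single libraries were left out: between -0.0427 and 0.0227 for retention of 342 bases in DDX39A, -0.004 and 0.061 for retention of 234 bases in DDX39A, -0.00267 and 0.0113 for the 180-base exon of THOC2, -0.0342 and 0.00383 for the 3′ splice site of THOC6, and -0.00817 and 0.00333 for the 118-base exon of THOC7. The difference in the share of DRIP peaks reversed to 0.000428 percentage points without peaks that met an RNH1 peak, and the cause was not tested. It was -0.0057 for a fold enrichment of at least 4 and between -0.00348 and -0.00168 without single libraries. With the replicate number as a block, the paired differences were -0.00279 and -0.00237, with the same mean of -0.00258. No paired analysis was possible for splicing because the numbers in the names of the MT columns could not be tied to the replicate numbers of the labels. At rare forms, a level rests on few junction reads, which limits its precision.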
